A study of Rattus norvegicus with 21 samples.

Results

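The comparison described here set livers of rats given erlotinib at 0.5 mg/kg against livers of rats given vehicle, all exposed to diethylnitrosamine (DEN). It was defined by the sample titles alone and took in 6 of the 21 arrays of the series, 3 in each group. The first group (erlotinib 0.5) was of male Wistar rats injected intraperitoneally with DEN at 50 mg/kg every week for 18 weeks and with erlotinib 5 times a week during weeks 13 to 18. The second group (vehicle) comprised male Wistar rats on the same DEN schedule with vehicle injections in the same weeks. All of these livers are labelled cirrhotic, and non-tumour tissue was taken after a washout of 1 week meant to clear acute effects of DEN. The labels give no ages and do not state outright that each array is a different rat, so the p-values reflect sample-to-sample spread, which may be technical. The dose of 0.5 mg/kg was used in a study of its own, and the vehicle rats of that study and of the 2 mg/kg study were merged without a mark on each rat. Dose and study therefore cannot be told apart. Where they help to place a level, 3 arrays of livers given DEN and erlotinib at 2 mg/kg (erlotinib 2), 3 arrays of livers given phosphate-buffered saline (PBS) at week 18, and the DEN 50 and PBS arrays of week 12 (3 each) are also used.

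Erlotinib blocks the kinase activity of EGFR, the receptor of epidermal growth factor (EGF), which hepatocytes carry in abundance and which responds to EGF, transforming growth factor alpha and related ligands. The receptor signals through RAS and ERK to growth genes, and both hepatocytes and the stellate cells that lay down collagen respond to it. DEN is activated by cytochrome P450 enzymes in pericentral hepatocytes, alkylates DNA, and with repeated dosing produces scarring, altered hepatocyte foci and tumours.

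Levels below are log2 intensities from Illumina bead arrays after background correction and quantile normalization, and differences are erlotinib 0.5 minus vehicle on that scale, so that 1 is a doubling. A level can be compared between arrays for 1 gene, not between genes. In bulk tissue, fewer cells of a type and less RNA per cell cannot be told apart. Raw array medians were 139 to 155 in erlotinib 0.5 livers and 105 to 144 in vehicle livers, and vehicle array 24 had the lowest raw median of all 21 arrays. Hepatocyte markers (7 of 8 measured) had summed normalized intensities of 123058 to 128832 in erlotinib 0.5 livers and 101197 to 139511 in vehicle livers. Near background means a group mean of at most 6.38, the median of all values. Of the 7 markers, 1 was near background in all 4 groups of week 18.

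Few features passed the test. Of 19339 features tested, 27 were called at a Benjamini-Hochberg adjusted p under 0.05 in limma's moderated test (0.14%), with 20 higher (0.103%) and 7 lower (0.0362%) in erlotinib 0.5 livers. Of these, 16 and 7 carried a gene name. The genes that fell included the calcium-binding protein S100a6, the oncofetal proteoglycan Gpc3 and the membrane-binding proteins Anxa1 and Plscr1. Those that rose included the fatty acid desaturase Fads1, the thyroid hormone deiodinase Dio1, the male-type steroid dehydrogenase Hsd3b5 and the secreted lectin Mbl2. The calls depended on the scaling of the arrays. With the arrays scaled to equal medians, or to equal medians of bright probes, no feature was called. Under these scalings 957 and 1057 of the 19339 features had an unadjusted p under 0.05. Both counts were close to a share of 0.05, that of features without any difference. After quantile normalization there were 2172, or 11.2%. All 27 features kept their direction under both scalings.

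S100a6 had the smallest p of all features. It stood at 8.56, 8.75 and 8.68 in erlotinib 0.5 livers, against 9.89, 9.91 and 9.95 in vehicle livers. The 3 vehicle arrays lay almost on 1 level and every erlotinib 0.5 array lay more than 1 log2 unit below it. The difference was -1.25 ± 0.16 (SE, adjusted p = 0.0026). In PBS livers of week 18, S100a6 averaged 6.92, and DEN 50 had raised it by 1.84 at week 12, so the erlotinib 0.5 level stood between those of vehicle and PBS livers.

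Gpc3, which anchors heparan sulfate at the cell surface and is expressed in foetal liver and liver tumours, read 8.79, 9.00 and 9.29 in erlotinib 0.5 livers, against 10.17, 10.24 and 9.88 in vehicle livers. The groups were separated by more than the range within either of them. Gpc3 fell by 1.07 on the log2 scale (SE 0.16, adjusted p = 0.0066). Its mean was 6.44 in PBS livers of week 18, well below both DEN groups.

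Rasl11b, a small GTPase of the RAS family, had the lowest difference among called genes, -1.39 ± 0.26 (SE, adjusted p = 0.033). Its levels were 7.35, 7.73 and 7.27 in erlotinib 0.5 livers and 8.96, 9.36 and 8.21 in vehicle livers, where array 69 was the lowest. Plscr1, an interferon-inducible phospholipid scramblase, was at 8.63, 9.06 and 9.03 against 10.02, 9.66 and 10.05 in vehicle livers, a difference of -1.01. Anxa1, a phospholipid-binding protein with anti-inflammatory actions, was at 9.45, 9.90 and 10.30 in erlotinib 0.5 livers. The vehicle livers had 10.88, 10.90 and 10.80 for Anxa1, so the fall of 0.98 rested on a wide erlotinib 0.5 group and a tight vehicle group. The other called genes that fell were the RNA-binding ubiquitin ligase Mex3c (difference -0.98, adjusted p = 0.048) and the ESCRT-III subunit Chmp4c (difference -0.81, adjusted p = 0.033).

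Among the genes that rose, Amy1, an amylase expressed in liver, had the smallest p. It read 12.53, 12.30 and 12.44 in erlotinib 0.5 livers, against 11.64, 11.47 and 10.99 in vehicle livers. Every erlotinib 0.5 array lay above every vehicle array, and the difference was 1.06 ± 0.14 (SE, adjusted p = 0.0031). The summed level of all 5 defining pancreatic acinar markers was 439 to 555 in erlotinib 0.5 livers and 754 to 1102 in vehicle livers, and 3 of the 5 were near background (a group mean of at most 6.38, the median of all values) in all 4 groups of week 18.

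Fads1 introduces a double bond into polyunsaturated fatty acids. Its levels were 11.37, 11.08 and 11.18 in erlotinib 0.5 livers and 9.37, 10.58 and 9.37 in vehicle livers, where array 59 stood apart from the other 2. The difference was 1.44 ± 0.23 (SE, adjusted p = 0.015). Hsd3b5, whose expression in rat liver is male-typical and follows the pulsatile pattern of growth hormone, read 10.85 to 11.16 on the 3 erlotinib 0.5 arrays. In vehicle livers it read 10.10, 9.95 and 9.21, with array 69 lowest, and the difference was 1.25 ± 0.22 (SE, adjusted p = 0.016). Akr1c2, an aldo-keto reductase, had the highest difference among named called genes, 1.53 ± 0.30 (SE, adjusted p = 0.044), with 9.25, 8.63 and 8.84 in erlotinib 0.5 livers against 8.03, 7.34 and 6.76 in vehicle livers.

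Dio1, which converts thyroxine to the active hormone, was at 11.86, 12.15 and 12.37 in erlotinib 0.5 livers and at 11.31, 10.86 and 10.66 in vehicle livers, a difference of 1.18 (adjusted p = 0.015). Mbl2, a lectin of innate immunity secreted by hepatocytes, was at 9.49, 9.37 and 9.46 in erlotinib 0.5 livers and at 8.63, 8.70 and 7.68 in vehicle livers, a difference of 1.11 (adjusted p = 0.015). For both genes the groups did not overlap, and for Mbl2 the erlotinib 0.5 arrays agreed closely while vehicle array 69 lay well below its group. Ndrg2, a gene of differentiated cells, was tight in both groups, with 12.35, 12.53 and 12.39 in erlotinib 0.5 livers and 11.27, 11.45 and 11.39 in vehicle livers. Its difference was 1.05 ± 0.18 (SE, adjusted p = 0.015).

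Several other called genes code for hepatocyte transport and lipid functions. The organic anion transporter Slc22a7 rose by 1.02 (adjusted p = 0.044), the efflux transporter Abcc6 by 0.84 (adjusted p = 0.016) and Pcyt2, an enzyme of phosphatidylethanolamine synthesis, by 0.94 (adjusted p = 0.023). The ketone body enzyme Bdh1 rose by 0.71 (adjusted p = 0.046), and Gltpd2, a relative of glycolipid transfer proteins, by 0.84 (adjusted p = 0.015). Outside these roles rose the secreted serine protease Htra1 (0.93), the adhesion receptor Adgrl1 (0.81) and the odorant receptor gene Olr59 (1.15). Marco, a scavenger receptor of macrophages, read 8.16, 7.78 and 7.91 in erlotinib 0.5 livers and 6.88, 6.80 and 7.09 in vehicle livers. Marco rose by 1.03 (adjusted p = 0.044), whereas the macrophage list as a whole had a median difference of -0.14 over 22 measured genes. The remaining 4 called features were probes without a gene name, all higher, by 0.62 to 1.71. Each called gene was measured by a single probe, so no second probe checks it.

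**Figure D1:**
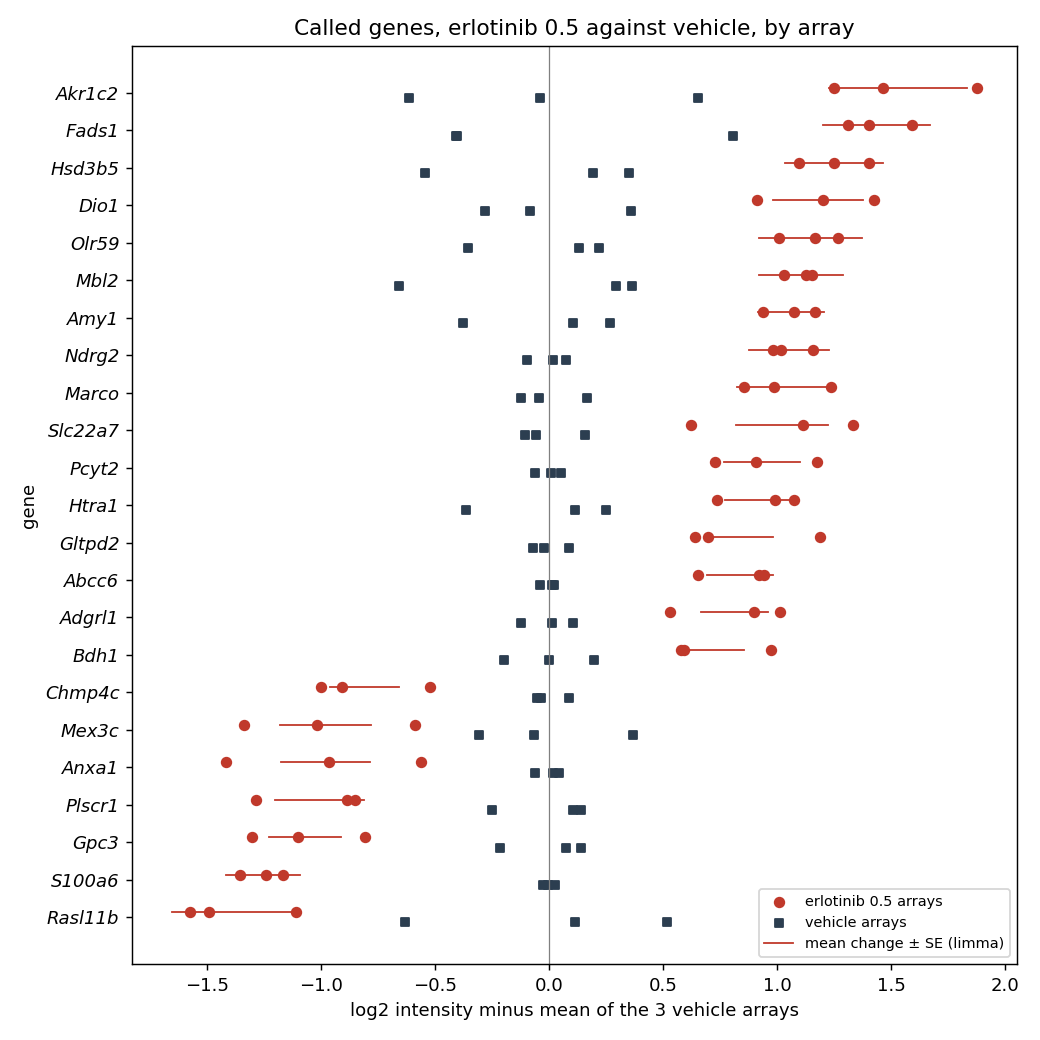
Log2 intensity of each of the 23 called named genes on the single arrays, with the mean of the 3 vehicle arrays set to 0 (x axis); circles are the 3 erlotinib 0.5 arrays, squares the 3 vehicle arrays, and the line is the limma mean change ± SE. No gene's groups overlap; the vehicle arrays of Fads1, Akr1c2, Rasl11b and Mbl2 are spread widely, those of S100a6 and Abcc6 hardly at all.

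**Figure D2:**
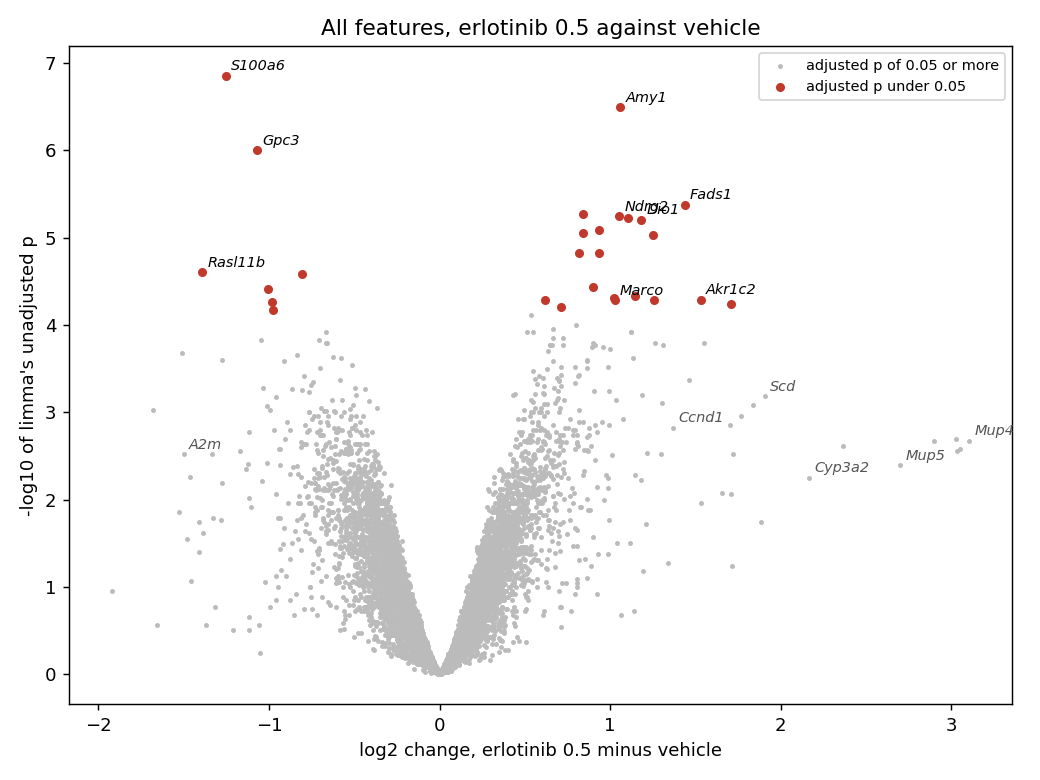
Log2 change, erlotinib 0.5 minus vehicle (x axis), against the -log10 of limma's unadjusted p (y axis) for the 19339 features; the 27 called features are in red. S100a6, Amy1 and Gpc3 stand highest, and Mup4, Mup5 and Cyp3a2 have large changes with modest p-values and widely spread vehicle arrays.

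The called genes were set against the effect of DEN itself at week 12, which comes from other arrays. DEN 50 livers of week 12 had 1115 features higher than PBS livers (5.77%) and 993 lower (5.13%). Of the 20 features that rose with erlotinib 0.5, 10 had been lowered by DEN and 0 raised. Of the 7 that fell, 5 (S100a6, Gpc3, Rasl11b, Plscr1 and Anxa1) had been raised and 0 lowered. The week-12 difference, DEN 50 minus PBS, was -2.32 for Olr59, -1.66 for Hsd3b5 and 2.97 for Gpc3.

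Over the 1115 features raised by DEN at week 12, the median difference between erlotinib 0.5 and vehicle was -0.01, with 544 above and 571 below 0. Over the 993 features lowered by DEN, it was -0.03, with 444 above and 549 below 0. Under median scaling of the arrays the same 993 features had a median of -0.01, whereas the 142 features that were called lowered under that scaling had a median of 0.15. The same 1115 features had a median of 0.02 under median scaling. The median over all features was 0.00, with quartiles of -0.12 and 0.12. Among the 100 features most raised by DEN, a set chosen after the data were seen, the median was -0.17 and 61 lay below 0. That median was -0.31 without vehicle array 24, -0.05 without array 59 and -0.02 without array 69. Among the 100 most lowered, chosen likewise, the median was 0.23 and 67 lay above 0, and the median was 0.13 without vehicle array 69. Genes of the DEN response that stayed close to the vehicle level included Gstp1, the classical marker of altered hepatocyte foci in the rat. Gstp1 stood at 13.69, 13.95 and 14.30 in erlotinib 0.5 livers and at 13.70, 14.52 and 14.80 in vehicle livers (difference -0.36, adjusted p = 0.76), with a PBS mean of 7.32.

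Single arrays differed in how far they lay from the vehicle group. Measured against the mean of the 3 vehicle arrays, 215 features on array 73, 147 on array 74 and 142 on array 79 differed by more than 1 log2 unit. Of 181 features more than 1 unit higher on at least 1 erlotinib 0.5 array, 27 were so on all 3, and of 167 lower ones, 12 were. Called features made up 6 of those 27 and 2 of those 12. Among the vehicle arrays, array 24 differed by more than 1 unit from the mean of the other 2 in 321 features, array 59 in 105 and array 69 in 129. In 3203 features (16.6%) the 3 erlotinib 0.5 arrays lay wholly above (1626, 8.41%) or wholly below (1577, 8.15%) the 3 vehicle arrays. All 27 called features were among these. With 3 against 3 arrays, a feature without any difference separates in this way with an exact probability of 0.1. Fewer features were separate under bright-probe scaling, where their share was close to that probability, as given below.

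Every called feature kept its direction when any of the 6 arrays was left out, but few kept the call. The direction was fixed in advance, since the groups of each called feature did not overlap. Without erlotinib 0.5 array 73 only 3 features were called, without array 74 there were 8, and without vehicle array 69 there were 8. Without erlotinib 0.5 array 79, vehicle array 24 or vehicle array 59 there were 25, 36 and 33. S100a6 and Amy1 were called in all 6 of these fits and Gpc3 in 5, while 13 features were called in 1 fit and Marco in 0. Fads1, Mbl2 and Gltpd2 were called in 4.

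The receptor that erlotinib blocks showed no called difference in its mRNA. Egfr was at 7.14, 6.89 and 6.86 in erlotinib 0.5 livers and at 7.45, 6.70 and 6.28 in vehicle livers, with overlapping groups and a difference of 0.15 ± 0.25 (SE, adjusted p = 0.91). Among 17 measured genes of the receptor, its partners and its ligands, 0 were called, the median difference was 0.08 (-0.02 under bright-probe scaling), and 7 lay near background in both groups. Nrg1, a ligand of the partner receptors, had the lowest p, with 7.27, 7.30 and 7.14 in erlotinib 0.5 livers and 6.59, 6.90 and 6.11 in vehicle livers (difference 0.70, adjusted p = 0.13). Egf differed by 0.28, Tgfa by 0.35 and the partner receptor Erbb3 by 0.14, each with an adjusted p of at least 0.53. The feedback inhibitor Errfi1 differed by -0.64, within a spread of 10.35 to 12.09 in erlotinib 0.5 livers and 10.83 to 12.47 in vehicle livers.

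Transcripts that report ERK activity were likewise without a call. The median over 24 measured feedback and immediate early genes was 0.00. Several of them lay near background in both groups, among them Spry4, with means of 6.27 in erlotinib 0.5 and 6.10 in vehicle livers. The ERK phosphatase Dusp6 read 11.09, 10.58 and 11.08 in erlotinib 0.5 livers and 10.93, 10.61 and 10.76 in vehicle livers (difference 0.15). The transcription factors Egr1, Fos and Myc differed by -0.23, 0.16 and -0.53, with adjusted p-values of 0.66 or more. Spred1, an inhibitor of RAS signalling, had groups that did not overlap, with 6.60 to 7.16 in erlotinib 0.5 livers against 7.99, 7.40 and 7.61 in vehicle livers (difference -0.75, adjusted p = 0.14). Tissue was taken after the washout of 1 week, so the levels are not those of the dosing period.

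Collagen and matrix genes gave no call. None of 28 measured genes of the fibrillar collagen list was called, with a median of -0.02 (12 above and 16 below 0). Col1a1, a chain of the main scar collagen, read 7.70, 7.59 and 7.51 in erlotinib 0.5 livers and 6.92, 7.32 and 7.50 in vehicle livers, a difference of 0.36 ± 0.14 (SE, adjusted p = 0.32) with array 79 close to vehicle array 69. Col1a2, the other chain, was at 12.12, 11.96 and 12.41 against 11.49, 12.56 and 12.14 in vehicle livers, with overlapping groups and a difference of 0.10. Its PBS mean was 9.28, so both DEN groups were far above it.

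Several other fibrosis genes had differences below 0 that did not pass the test. Dcn, a collagen-binding proteoglycan, was at 9.10, 9.42 and 10.30 in erlotinib 0.5 livers and at 10.99, 10.68 and 10.52 in vehicle livers (difference -1.12, adjusted p = 0.15). Plod2, which hydroxylates collagen lysines for crosslinking, was at 8.94, 8.72 and 8.84 against 9.55, 9.72 and 9.23 in vehicle livers (difference -0.67, adjusted p = 0.067). Neither gene's groups overlapped. The protease inhibitor Timp1 differed by -0.32 and the matrix protein Mgp by -0.83. Other members of the fibrosis lists lay above 0 and did not pass the test either. Ecm1 differed by 0.64, Mmp14 by 0.51 and Tgfbi by 0.43, each wholly above vehicle (adjusted p of 0.19 or more). Col4a1, with overlapping groups, differed by 0.50. Of 26 measured genes of crosslinking and turnover 0 were called and the median was -0.02, and of 16 stellate cell and myofibroblast markers 0 were called and the median was -0.13. In the pathway of transforming growth factor beta (18 measured, 0 called, median -0.03), Tgfb1 differed by 0.02, its matrix target Ccn2 by -1.12 (adjusted p = 0.24), Pmepa1 by -0.49 and the latent binding protein Ltbp1 by -0.52. The 3 measured defining stellate markers summed to 2954 to 3482 in erlotinib 0.5 livers and 3198 to 3984 in vehicle livers.

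Genes of cholesterol synthesis and uptake formed the list with the highest median. Over 17 measured genes it was 0.57, with 16 above 0, and the medians on arrays 73, 74 and 79 were 0.70, 0.44 and 0.70. Of the 17, 0 were called, 11 were higher at an unadjusted p under 0.05 (5.55% of all features were) and 8 lay wholly above vehicle (8.41% of all features did). Acat2, which forms acetoacetyl-CoA, was at 10.69, 10.31 and 10.75 in erlotinib 0.5 livers and at 8.69, 10.13 and 9.15 in vehicle livers (difference 1.26, adjusted p = 0.067). Mvd, an enzyme of the mevalonate pathway, was at 8.53, 8.56 and 8.84 against 7.49, 8.33 and 7.66 in vehicle livers (difference 0.82, adjusted p = 0.096). Dhcr7, which makes cholesterol in the last step, was at 11.81, 11.83 and 12.20 in erlotinib 0.5 livers and at 9.52, 11.87 and 10.99 in vehicle livers (difference 1.15, adjusted p = 0.21). Vehicle array 59 was the highest of its group in all 3 genes and stood above erlotinib 0.5 arrays 73 and 74 in Dhcr7. Without it Acat2 passed the test, with a difference of 1.67 (adjusted p = 0.0055), as did Dhcr7, Mvd, Fads2 and Hamp. Without vehicle array 24, which was the lowest in Acat2, Mvd, Dhcr7 and Hamp, the differences were 0.94, 0.65, 0.51 and 0.79, with adjusted p-values of 0.24, 0.34, 0.73 and 0.62. Tm7sf2, a sterol reductase, differed by 0.91 (adjusted p = 0.18).

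Lipogenesis and desaturation genes had a median of 0.27 over 23 measured, and Fads1 was the 1 call. Fads2, its partner desaturase, was at 9.52, 8.75 and 8.27 in erlotinib 0.5 livers and at 7.48, 8.27 and 7.39 in vehicle livers (difference 1.13, adjusted p = 0.078), with array 79 level with vehicle array 59. Scd, which desaturates stearate, was at 13.86, 13.32 and 13.11 against 11.92, 12.21 and 10.44 in vehicle livers, and its difference of 1.91 did not pass (adjusted p = 0.12). Fatty acid oxidation genes (36 measured) had a median of 0.08, with Bdh1 as the only call.

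Genes of drug metabolism and male-type liver had wide vehicle groups. The P450 list had a median of 0.24 over 47 measured genes, with 0 called, 14 higher (5.55% of all features) and 2 lower (5.68% of all features) at an unadjusted p under 0.05. Cyp3a2, a steroid and drug hydroxylase that is male-specific in the rat, was at 12.84, 12.90 and 12.43 in erlotinib 0.5 livers, and at 12.50 and 8.18 on vehicle arrays 24 and 69, with array 59 between them. The vehicle arrays spanned more than 4 log2 units, array 24 lay at the erlotinib 0.5 level, and the difference of 2.16 had an adjusted p of 0.21. Cyp3a18 was at 12.54, 13.20 and 13.47 against 12.43, 11.24 and 10.91 in vehicle livers (difference 1.55, adjusted p = 0.067), and Cyp3a23-3a1 differed by 1.72 (adjusted p = 0.17).

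Mup4 and Mup5, major urinary proteins whose genes depend on growth hormone pulses, showed the same order. Mup4 was at 13.59, 12.90 and 14.06 in erlotinib 0.5 livers and at 13.50, 10.42 and 7.32 in vehicle livers. Vehicle array 24 was within the erlotinib 0.5 range and arrays 59 and 69 were far below it, so the difference of 3.10 ± 0.88 (SE) had an adjusted p of 0.16. The Mup4 difference was 4.65 without vehicle array 24 (adjusted p = 0.0013) and 1.56 without array 69 (adjusted p = 0.33). Mup5 differed by 2.70, by 4.20 without array 24 and by 1.16 without array 69. Cyp3a2, Cyp3a18, Slco1b2 and Lect2 also passed the test without array 24, but without array 69 the differences were smaller than with all arrays, at 0.97 (adjusted p = 0.52), 1.24, 0.81 and 1.22. Members of the Mup family are near-identical, so 1 probe may detect other members. Cyp2c11, the most abundant male-specific P450, was at 8.31, 10.46 and 10.47 in erlotinib 0.5 livers, at 10.31, 7.57 and 6.22 in vehicle livers and at a mean of 14.70 in PBS livers. The whole growth hormone list (24 measured) had 1 call, Hsd3b5, and a median of 0.29 that was 0.13 without vehicle array 24 and 0.17 without array 69.

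**Figure D3:**
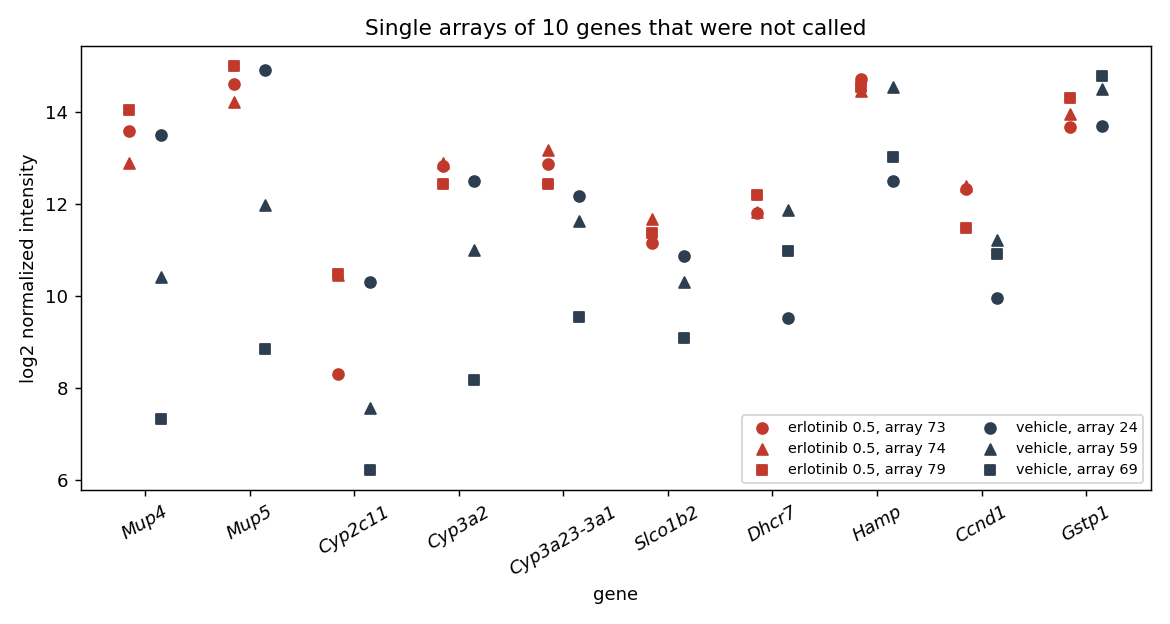
Log2 normalized intensity (y axis) of 10 genes that were not called, on each erlotinib 0.5 array (red, left of each gene) and each vehicle array (dark, right); marker shape gives the array number. Mup4, Mup5, Cyp3a2 and Cyp2c11 run from near the erlotinib 0.5 level on vehicle array 24 down to array 69.

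Bile acid and transport genes (22 measured) had a median of 0.31, 1 call (Slc22a7) and 10 genes wholly above vehicle (8.41% of all features were). The hepatic uptake carrier Slco1b2 was at 11.15, 11.68 and 11.38 in erlotinib 0.5 livers and at 10.87, 10.31 and 9.09 in vehicle livers (difference 1.31, adjusted p = 0.067). Slc27a5, the bile acid CoA ligase, differed by 1.76 (adjusted p = 0.14), and the sterol exporter Abcg5 differed by -1.11 (adjusted p = 0.26). Secreted hepatocyte proteins (47 measured) had a median of 0.23, with 38 above 0, 12 wholly above vehicle and 1 wholly below (8.41% and 8.15% of all features). Mbl2 was the 1 call. Plasminogen (Plg) was at 14.06, 13.80 and 13.66 against 12.63, 13.17 and 13.29 in vehicle livers (difference 0.81, adjusted p = 0.16), while albumin (Alb) differed by 0.05. Pericentral genes had a median of 0.34 over 20 measured, with 18 above 0 and 0 called. Of these, the vasopressin receptor Avpr1a was at 8.67, 8.40 and 7.92 against 7.30, 7.33 and 6.45 in vehicle livers (difference 1.30, adjusted p = 0.13), and the ammonium transporter Rhbg differed by 0.87. The iron hormone Hamp was at 14.71, 14.46 and 14.55 in erlotinib 0.5 livers and 12.51, 14.54 and 13.03 in vehicle livers (difference 1.22, adjusted p = 0.17), and the acute phase inhibitor A2m differed by -1.50 (adjusted p = 0.17).

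**Figure D4:**
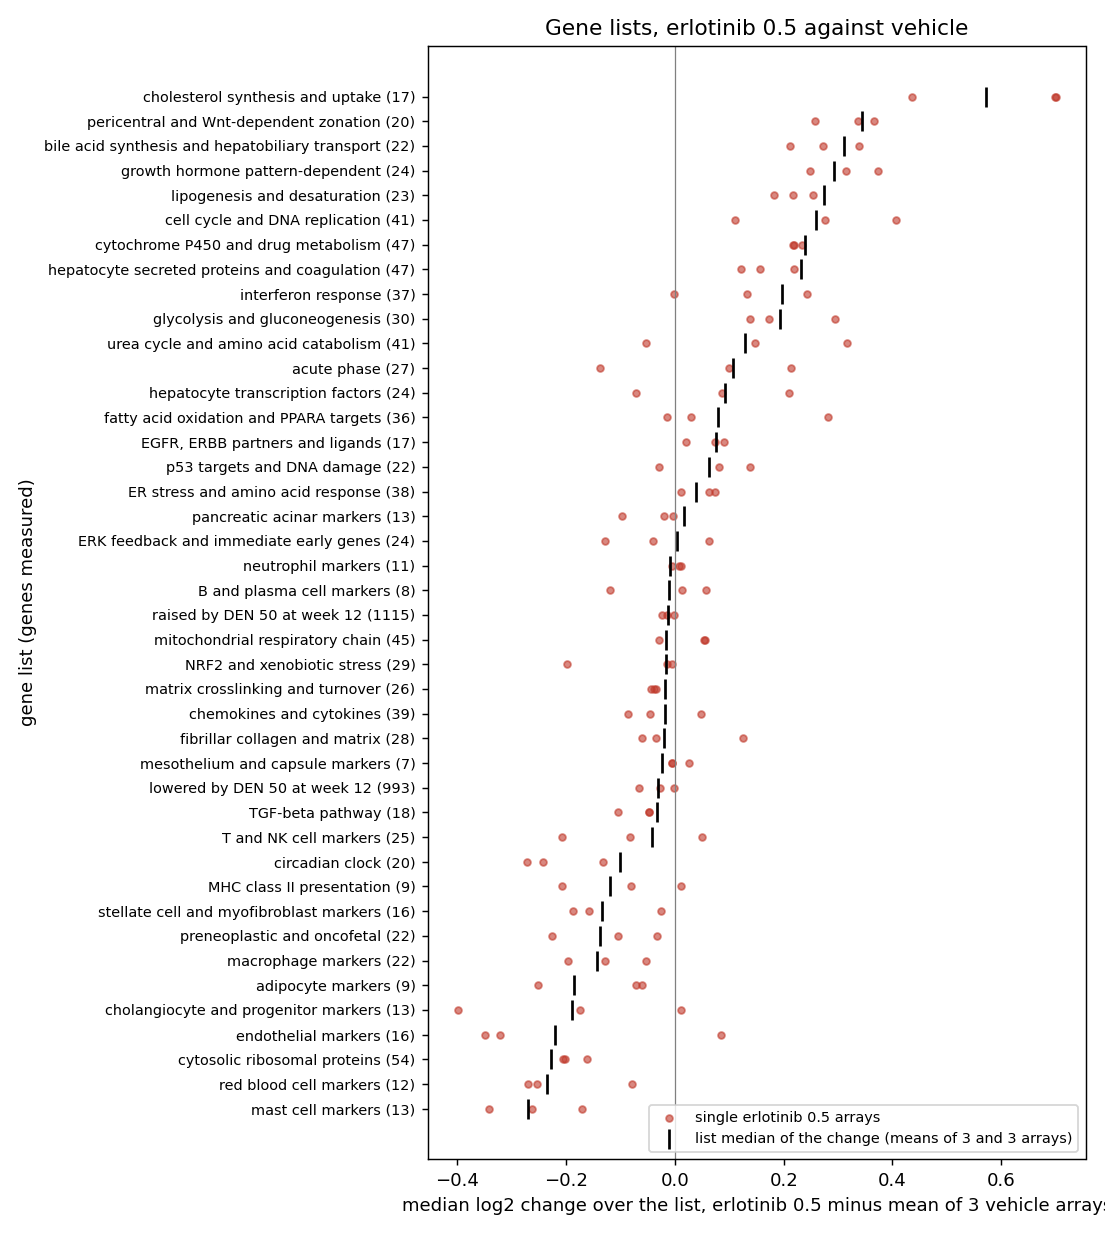
Median log2 change over each gene list (x axis; black bar for the change between group means, red points for each erlotinib 0.5 array minus the mean of the 3 vehicle arrays), with the number of genes measured in brackets. Cholesterol synthesis lies at the top at 0.57 and mast cell markers at the bottom at -0.27; the lists raised or lowered by DEN lie close to 0.

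Over 41 measured cell cycle genes the median was 0.26, with 36 above 0, 0 called, and 12 higher and 0 lower at an unadjusted p under 0.05 (5.55% and 5.68% of all features). The medians on arrays 73, 74 and 79 were 0.11, 0.41 and 0.28, and the median was 0.08 without vehicle array 24, whose own median was -0.47 against the mean of the other 2. Cyclin D1 (Ccnd1), which drives entry into the cycle, was at 12.32, 12.40 and 11.47 in erlotinib 0.5 livers and at 9.96, 11.22 and 10.91 in vehicle livers (difference 1.37, adjusted p = 0.15). The mitotic genes Prc1, Nuf2 and Tpx2 differed by 0.79, 0.69 and 0.67, each with an adjusted p of 0.18 or more.

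Of 22 measured preneoplastic and oncofetal genes, 1 was called (Gpc3, lower), and the median was -0.14. Afp differed by -0.53, Igf2 by -0.96, Serpinb1a by -0.55 and the aldehyde reductase Akr7a3 by 0.64, and none of these passed. Krt19 and Epcam, markers of bile ducts and progenitor cells, differed by -0.55 and -0.38 within wide groups. The cholangiocyte list (13 measured, 0 called) had a median of -0.19, and its 4 measured defining markers summed to 1996 to 3261 in erlotinib 0.5 livers and 2087 to 5083 in vehicle livers.

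Immune and vascular lists gave the 1 call already named, Marco. Mast cell markers had a median of -0.27 over 13 measured, with 12 below 0 and 2 wholly below vehicle (8.15% of all features were), and the median was -0.14 without vehicle array 69. The IgE receptor chain Fcer1a was at 6.19, 6.44 and 6.81 in erlotinib 0.5 livers and at 8.19, 7.34 and 6.96 in vehicle livers (difference -1.01, adjusted p = 0.13). The proteases Mcpt1 and Cpa3 differed by -0.93 and -0.72. Interferon genes had a median of 0.20 over 37 measured, and of these the peptide transporter Tap2 was at 8.68, 8.53 and 8.19 against 6.83, 7.68 and 7.93 in vehicle livers (difference 0.99, adjusted p = 0.11). Mx2 differed by 0.72 and the immunoproteasome subunit Psmb9 by 0.64. Medians were -0.22 for endothelial (16 measured), -0.04 for T and NK cell (25), -0.12 for MHC class II (9) and -0.02 for chemokine and cytokine genes (39), with 0 called in each. Summed macrophage markers (7 of 10 measured) ran from 12076 to 14860 in erlotinib 0.5 livers and from 10545 to 15960 in vehicle livers, and their part in the result for Marco was not tested. Several list medians moved with single arrays. With each of the 6 arrays left out in turn, they ranged from -0.24 to -0.0059 for macrophage, -0.32 to -0.054 for endothelial, -0.40 to -0.068 for cholangiocyte, -0.31 to -0.077 for preneoplastic and 0.17 to 0.43 for pericentral genes, and vehicle array 24 set 1 end of each range.

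Erlotinib 0.5 livers were compared with erlotinib 2 livers directly, to ask whether the doses differed. The vehicle arrays did not enter the differences themselves, but they did enter the spread, shared by all groups, behind the p-values. The 2 doses come from different studies. In this comparison 15 features were called (0.0776%), 8 higher (0.0414%) and 7 lower (0.0362%) in erlotinib 0.5 livers, and their names are given because they were called. Only 4 were called in the deposited normalized table, 5 without background correction, 1 under median scaling and 3 under bright-probe scaling. Tagln, a contractile protein of myofibroblasts, was at 9.34, 8.91 and 9.61 in erlotinib 0.5 livers and at 7.94, 7.82 and 7.58 in erlotinib 2 livers, a difference of 1.51 ± 0.20 (SE, adjusted p = 0.0034). Col1a1 differed by 1.04 ± 0.14 (SE, adjusted p = 0.0034), with erlotinib 2 levels of 6.67, 6.37 and 6.66, all below the 3 erlotinib 0.5 levels given above. The collagen-processing genes Loxl1 and Adamts2 differed by 1.37 and 1.17, and the intermediate filament gene Vim by 1.17 (adjusted p = 0.032). For Tagln, Loxl1, Adamts2 and Vim, the erlotinib 0.5 arrays overlapped the range of the vehicle arrays.

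The other genes higher at 0.5 than at 2 mg/kg were the antioxidant Gpx3 (1.38), the protease inhibitor Serpine2 (0.99) and the growth factor Pdgfa (0.83). Genes lower at 0.5 mg/kg included several that follow growth hormone. The growth hormone receptor Ghr was at 6.92, 7.25 and 7.42 in erlotinib 0.5 livers and at 8.10, 8.12 and 7.87 in erlotinib 2 livers (difference -0.83, adjusted p = 0.047). Obp3, a lipocalin of male rat liver, was at 6.88, 6.74 and 7.79 against 9.86, 10.58 and 8.46 in erlotinib 2 livers (difference -2.50, adjusted p = 0.022). In PBS livers Ghr averaged 9.14 and Obp3 13.09, above both doses. Mup4l3, Stac3, Sez6 and Mug2 differed by -3.83, -1.96, -1.76 and -1.15. The median of the collagen list was 0.38 and that of the growth hormone list -0.60, against 0.00 over all features. Both lists hold genes called in this comparison, and the difference was not particular to them. Over the 100 features most raised by DEN at week 12 the median between the doses was 0.68, and over the 100 most lowered it was -0.82. S100a6 and Gpc3 were higher by 0.79 and 0.77 in erlotinib 0.5 than in erlotinib 2 livers, just outside the threshold (adjusted p = 0.058 and 0.057), whereas Fads1 differed by 0.02.

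**Figure D5:**
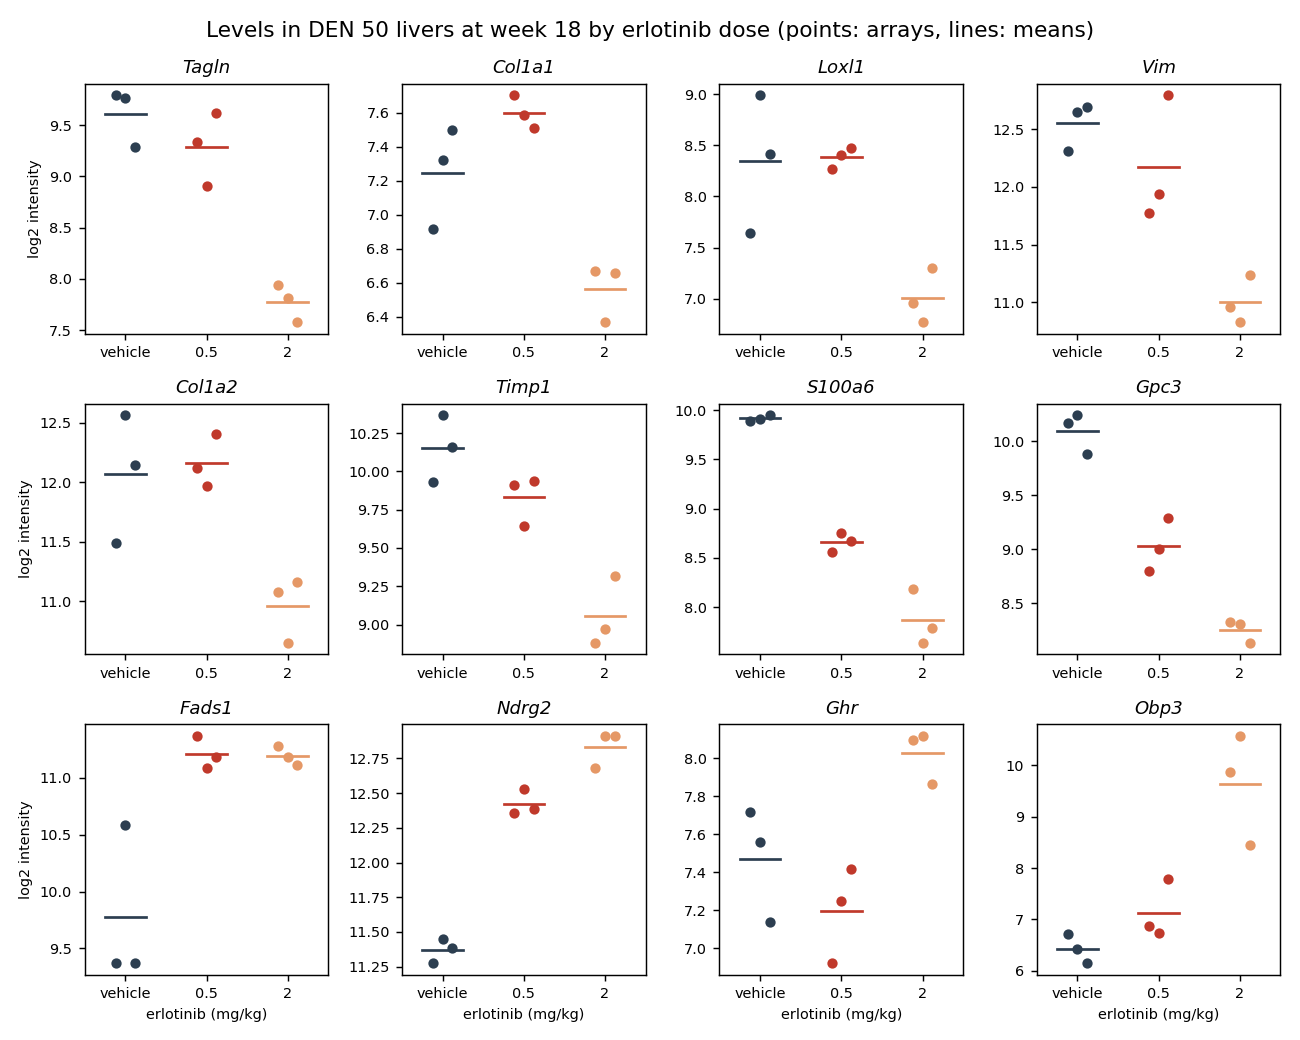
Log2 intensity (y axis, own scale in each panel) of 12 genes in DEN 50 livers of week 18 by erlotinib dose (x axis: vehicle, 0.5 and 2 mg/kg); points are the 3 arrays of a group and lines their means. Tagln, Col1a1, Loxl1 and Vim at 0.5 mg/kg lie above 2 mg/kg, while Fads1 lies at much the same level at both doses.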

How the data were processed

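Rat liver RNA was measured on 21 Illumina bead arrays of 22523 probes. The deposited raw table holds intensity on a linear scale without background subtraction. The deposited normalized table holds intensity values with array medians of 135 to 137, made by a method that no source used here names. Raw values were background corrected with limma 3.58.1 in R 4.3.3 (normexp with an offset of 50), converted to log2 and normalized between arrays by quantiles. A probe entered the tests if it exceeded its array's 40th percentile on 3 or more arrays, whichever their group, and a gene was represented by its brightest probe. This left 12112 named genes and 7227 unnamed probes. Of 13793 probes with a symbol, 13752 had an Entrez identifier in a RefSeq gene table (GRCr8), used for names alone.

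Group means of all 7 groups were fitted together (14 residual degrees of freedom), p-values were adjusted by Benjamini-Hochberg over all features, and 0.05 was the threshold. Genes are named from a set given by a rule, and not every gene of the set is named. It holds the 15 highest and lowest called genes whose arrays do not overlap. It also holds 24 genes chosen by role (23 measured) and, for each list, up to 4 members that changed most. Genes named for the comparison of doses lie outside this rule and were chosen after their values were seen, because they were called. The gene lists, and the comparison itself, were chosen with earlier results of these data known. Alternatives were the deposited table, no background correction, median scaling, scaling on bright probes (above the 60th percentile), no filter, a stricter filter, a trended and robust spread, array weights, the compared arrays alone, the mean of a gene's probes and leaving out each array. The 100 features most changed by DEN were added after the data were seen. The fit was tested on simulated data with 50 planted changes each of 0.5, 1, 1.5 and 2 log2 units. It called 9, 46, 50 and 50 of these, with 13 false calls among the other features. Changes of 0.5 were thus mostly missed. The simulated noise was normal, with the same spread on all arrays for a gene, whereas the real arrays differed in spread. Many large planted changes also ease the adjusted threshold, so the shares called need not hold for the real data. No 2 arrays held identical values, and no array was left out. Signal over background and the number of arrays limit the precision. Figures were drawn with Python 3.11.15 and matplotlib 3.10.9.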

Additional observations from a re-analysis of the deposited data

Results flagged for a closer look

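In all, 15 features differed between the doses of erlotinib in a direct test (limma, adjusted p under 0.05), which is what drew attention to them. As log2 differences, erlotinib 0.5 minus erlotinib 2, the 8 higher ones were Tagln at 1.51, Gpx3 at 1.38, Loxl1 at 1.37, Adamts2 at 1.17, Vim at 1.17, Col1a1 at 1.04, Serpine2 at 0.99 and Pdgfa at 0.83. The 7 lower ones were Ghr at -0.83, Mug2 at -1.15, Sez6 at -1.76, Stac3 at -1.96, Obp3 at -2.50, a probe without a gene name (ILMN_1366136) at -2.78 and Mup4l3 at -3.83. Among the erlotinib 2 arrays, array 31 had the level closest to the erlotinib 0.5 arrays for each of these 7 lower features. Dose and study cannot be told apart in these differences.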

How the results depend on the processing

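The count of features called between erlotinib 0.5 and vehicle, 27, was 15 in the deposited table, 0 under median scaling (smallest adjusted p 0.22), 0 under bright-probe scaling (0.1), 139 with array weights and 2 with the compared arrays alone. Without 1 array it ranged from 3 to 36. It was lowest without erlotinib 0.5 array 73 (3), without array 74 (8) and without vehicle array 69 (8). The array weight of vehicle array 24 was 0.48, the lowest of the 9 arrays of erlotinib and vehicle livers. Between the erlotinib doses, 15 became 4 in the deposited table, 5 without background correction, 1 under median scaling and 3 under bright-probe scaling. The count was 26 with a trended and robust spread, 194 with array weights and 273 with the compared arrays alone. With 1 erlotinib array left out it ranged from 1 to 29. Vehicle arrays entered the shared spread, and without vehicle array 24, 59 or 69 the count was 59, 14 or 25. Fewer than 10 were called there without erlotinib 0.5 arrays 73 (5) or 74 (3) or erlotinib 2 arrays 27 (3) or 29 (1), and 29 without array 31. Of 19339 features, those with separate arrays numbered 3203 in the main processing and 1876 under bright-probe scaling. The latter count was close to the exact probability of 0.1 for a feature without any difference. With 1 array left out, 4639 to 5613 features had separate arrays, where fewer arrays must be separate. The median over DEN-raised features was 0.028 under median scaling, -0.049 under bright-probe scaling, -0.051 with array weights and -0.086 (without vehicle array 24) to 0.039 (without vehicle array 69) with 1 array left out. That over DEN-lowered features was 0.15 under median scaling and -0.067 (without vehicle array 69) to 0.0056 (without vehicle array 24) with 1 array left out. Each setting's own DEN calls entered these medians, and under median scaling the lowered features numbered 142. The cause of these shifts was otherwise not tested. Reversed were uncalled differences near 0: Col1a2 at -0.11 with array weights and from -0.19 (without vehicle array 24) to 0.35 with 1 array left out, and Tgfb1 at -0.022 under bright-probe scaling, -0.042 with array weights and from -0.071 (without erlotinib 0.5 array 79) to 0.15 with 1 array left out. Egfr ranged from -0.11 (without vehicle array 69) to 0.47, and Alb from -0.0097 (without erlotinib 0.5 array 73) to 0.12. Of the genes named, 97 were checked, and these otherwise kept their direction under each alternative. Genes of the rule's set that are not named were not part of this check. The slide as a block was not run, because the headers give no slide. No paired analysis was possible because the groups share no number in the labels.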

Other observations

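Some clock genes with the largest changes had differences below 0 that did not pass the test. Per2, a repressor of the circadian clock, was at 9.22, 9.13 and 8.20 in erlotinib 0.5 livers and at 10.41, 9.93 and 9.35 in vehicle livers (log2 difference -1.04, adjusted p = 0.22). Per1 differed by -0.91, Tsc22d3 by -1.12 (adjusted p = 0.20) and the deadenylase Noct by -1.46, where vehicle array 59 stood far above the other vehicle arrays (10.31, against 8.02 and 7.60). The clock list had 0 of 20 measured genes called and a median of -0.10. No source used here gives the time of day of killing. The amino acid enzymes Tdo2 and Sds differed by -0.81 and -1.41, and Kynu, of the tryptophan pathway, by 1.08.

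Cytosolic ribosomal protein genes mostly had small differences below 0. Of 54 measured, 0 were called, 44 lay below 0, and 17 lay wholly below vehicle against 1 wholly above (8.15% and 8.41% of all features). The median was -0.23, with -0.20, -0.16 and -0.21 on arrays 73, 74 and 79. Rpl10 was at 12.62, 12.94 and 13.24 in erlotinib 0.5 livers and at 13.83, 13.39 and 13.39 in vehicle livers (difference -0.60, adjusted p = 0.15), and Rpl22 differed by -0.55. The median of this list stayed between -0.25 and -0.18 under the other scalings, and was -0.15 without vehicle array 24. Mitochondrial respiratory chain genes (45 measured) had a median of -0.02.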
